A study of Mus musculus with 45 samples.

Results

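The enzymes that turn squalene into cholesterol were followed in cultured mouse forelimb buds exposed to bisphenol A (BPA), a plastics monomer that binds estrogen receptors. They comprise Sqle, Lss, Cyp51, Msmo1, Nsdhl, Hsd17b7, Ebp, Sc5d and Dhcr7, taken as the rows whose gene symbol equals one of these names, which gave 9 genes of the 36300 gene identifiers in the deposited tables. On the mm10 build the genes lie as follows: Sqle at chr15:59315077-59331192 (plus strand), Lss at chr10:76531588-76557138 (plus strand), Cyp51 at chr5:4081145-4104746 (minus strand), Msmo1 at chr8:64718139-64733792 (minus strand), Nsdhl at chrX:72918557-72958514 (plus strand), Hsd17b7 at chr1:169949535-169969241 (minus strand), Ebp at chrX:8185329-8193512 (minus strand), Sc5d at chr9:42251595-42264256 (minus strand) and Dhcr7 at chr7:143823145-143848410 (plus strand). They sit on different chromosomes, apart from Nsdhl and Ebp, which share the X. All 9 passed the filter on low counts in every comparison. The buds were taken on gestation day 13 from outbred CD1 mice and kept in glass bottles with 6 mL of a medium that was 75% BGJb, under 50% oxygen and 5% carbon dioxide. Bottles were given vehicle (the solvent dimethyl sulfoxide), 10 µM BPA or 50 µM BPA for 3, 24 or 48 h, which makes 9 groups of 5 RNA-seq libraries. A bottle held pooled limbs of both sexes, so a library is a mixture of embryos. Nothing states that a group's 5 libraries stem from separate litters or days, and the p-values therefore measure only the spread among them, which may be technical.

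Cholesterol is made in a long chain of reactions. The mevalonate arm builds squalene, Sqle oxidises it, Lss closes the rings to give lanosterol, and the remaining enzymes strip methyl groups and move double bonds until cholesterol is reached. The genes of the chain are classical targets of the transcription factor SREBP2, which leaves the endoplasmic reticulum for the nucleus when membrane sterol falls and is held back by Insig proteins when sterol is plentiful. In the limb, sterols matter for Hedgehog signalling: the Hedgehog proteins that pattern the digits and pace the growth plate carry cholesterol. Inherited loss of Dhcr7, Nsdhl or Ebp in humans or mice gives syndromes with skeletal malformations.

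The promoters are shown for 4 of the enzymes, chosen with their calls known. Msmo1, Nsdhl and Dhcr7 rose by 0.89 or more on the log2 scale at 50 µM and 3 h, and Ebp was not called in any of the 15 tests. Cyp51 also rose by more than that, at 1.03, and its window is not printed. Sequences are from RefSeq, build GRCm38.p6, and run from 250 bases before to 50 bases after the gene start of RefSeq in the direction of transcription. That start lies 0 to 49 bases from the start deposited with the counts, except in Msmo1, where it lies 214 bases inside the deposited gene, so most of the Msmo1 window is within it. Capitals mark ATTGG on either strand (printed CCAAT where it lies on the other strand), the inverted CCAAT box bound by NF-Y, a usual partner of SREBP2, and CACNCCA, the core of the sterol regulatory element.
Msmo1 (chr8:64733529-64733828, minus strand): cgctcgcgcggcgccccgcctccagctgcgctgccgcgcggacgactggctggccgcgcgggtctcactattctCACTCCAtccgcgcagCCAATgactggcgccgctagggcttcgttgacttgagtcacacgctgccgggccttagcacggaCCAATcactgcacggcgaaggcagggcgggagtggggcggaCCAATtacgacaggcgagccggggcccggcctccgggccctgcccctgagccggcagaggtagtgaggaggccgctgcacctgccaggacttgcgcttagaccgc
Nsdhl (chrX:72918271-72918570, plus strand): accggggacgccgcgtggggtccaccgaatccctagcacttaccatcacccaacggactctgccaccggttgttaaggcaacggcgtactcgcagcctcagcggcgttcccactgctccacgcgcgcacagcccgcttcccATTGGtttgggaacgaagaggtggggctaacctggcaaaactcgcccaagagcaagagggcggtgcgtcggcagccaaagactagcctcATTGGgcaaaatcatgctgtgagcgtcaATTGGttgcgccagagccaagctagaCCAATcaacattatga
Ebp (chrX:8193463-8193762, minus strand): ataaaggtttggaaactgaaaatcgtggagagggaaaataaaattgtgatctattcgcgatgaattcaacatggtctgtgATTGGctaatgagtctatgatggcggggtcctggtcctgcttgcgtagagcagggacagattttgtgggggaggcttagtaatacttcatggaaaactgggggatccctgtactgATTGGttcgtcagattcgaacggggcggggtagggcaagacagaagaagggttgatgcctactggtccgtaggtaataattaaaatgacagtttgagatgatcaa
Dhcr7 (chr7:143822917-143823216, plus strand): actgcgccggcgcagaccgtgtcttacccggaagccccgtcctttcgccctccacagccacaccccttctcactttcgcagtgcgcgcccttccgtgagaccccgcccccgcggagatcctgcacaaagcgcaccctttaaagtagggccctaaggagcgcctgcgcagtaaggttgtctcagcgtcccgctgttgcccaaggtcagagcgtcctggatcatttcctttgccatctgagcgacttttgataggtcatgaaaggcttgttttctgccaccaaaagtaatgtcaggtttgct
A promoter window was found for 8 of the 9 enzymes, all but Sqle. ATTGG lay in 7 of the 8 windows, all but that of Dhcr7, against 37.4% of 32851 promoter windows of the same length. The window of Nsdhl held it at 4 places, those of Msmo1 and Hsd17b7 at 3, that of Ebp at 2, and those of Lss, Cyp51 and Sc5d at 1. CACNCCA lay in the window of Msmo1 alone, at 176 bases before the start, against 18.4% of all windows, and the longer TCACNCCAC in none of the 8, against 1.24%. The GC box GGGCGG lay in 8 of 8 against 35.7%, and the E-box CANNTG in 6 of 8 against 72.3%. Both strands were searched, and CACNCCA is part of TCACNCCAC. These matches describe letters in a window and are neither binding sites nor a cause of any change.

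The libraries held a total of 17540925 to 27119650 counts. In any library the counts of the 9 enzymes ran between 170 for Ebp and 4815 for Cyp51. Of 61 marker genes for epidermis, limb mesenchyme, cartilage, skeletal muscle, macrophages, endothelium and erythroid cells, 59 were above 0 in every library. The forelimb marker Tbx5 stood at 200 CPM or more, the mesenchymal marker Prrx1 at 357 CPM or more and the cartilage collagen Col2a1 at 2137 CPM or more in all 45 libraries. Epidermal content varied widely at the later times, with 12 epidermal markers summing to between 89.3 and 1256 CPM (counts scaled to library size by TMM over all 45 libraries) in the vehicle libraries of 24 h. A library of 10 µM at 3 h (replicate 4) had 0 CPM of the Y-linked Ddx3y, a library of 10 µM at 24 h (replicate 5) had 0.144 CPM of it, and a library of 10 µM at 48 h (replicate 2) had 2.18 CPM of Xist, the RNA of the inactive X. These 3 libraries stood apart from the mixed-sex cultures that the labels describe. They were kept, and 0 enzymes were called against vehicle at 10 µM both with and without each of them.

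The 50 µM libraries titled 3 h carry 24 h in their treatment-length label, and the title was followed. Their 8 cartilage markers summed to 3830 to 4845 CPM, against 3998 to 4781 CPM in vehicle of 3 h, while the 50 µM libraries of 24 h had 10302 to 11958 CPM and vehicle of 24 h had 9601 to 12110 CPM.

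In buds given 50 µM BPA, transcripts of the post-squalene enzymes rose within 3 h. Of the 9 enzymes 8 were called higher than in vehicle (edgeR quasi-likelihood test, Benjamini-Hochberg adjusted p under 0.05), Ebp being the exception. Across all genes 0.889% were called higher in that comparison. The same 8 enzymes had all 5 treated libraries above all 5 vehicle libraries, against 2.43% of all genes. The median log2 fold change of the 9 enzymes was 0.86, beside −0.002 over all genes tested, and their values lay between 0.16 for Ebp and 1.15 for Dhcr7.

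**Figure D1:**
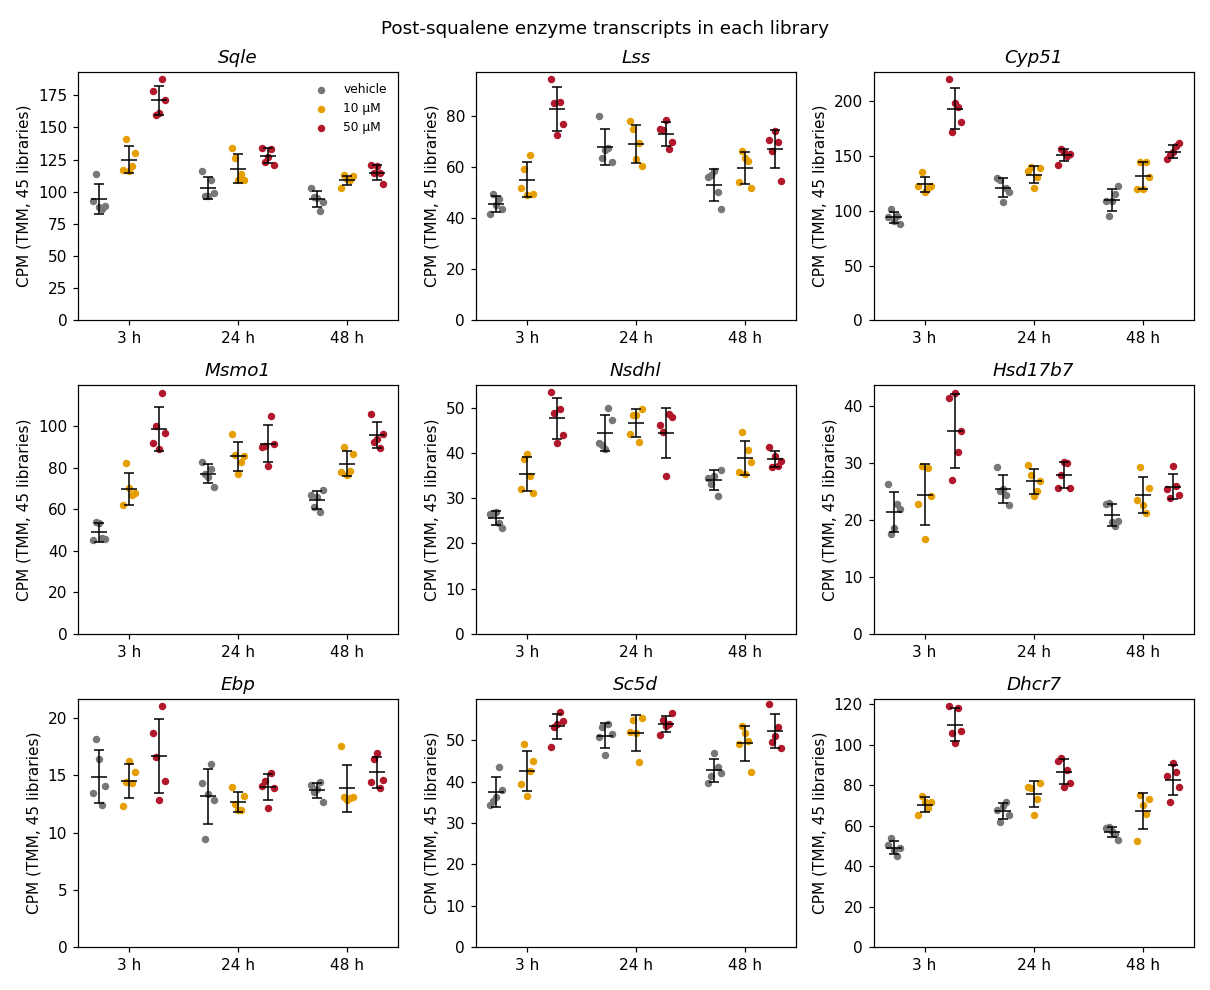
Transcript level of each enzyme in every library, in CPM scaled by TMM over 45 libraries, from an axis starting at 0. Points are the 5 libraries of a group, the bar and whiskers their mean and SD, and within a time the groups are vehicle, 10 µM and 50 µM; at 3 h the 50 µM libraries of all enzymes but Ebp lie wholly above the vehicle libraries.

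The first enzymes of the chain rose by about the same amount. Sqle, squalene epoxidase, which adds oxygen to squalene and is a rate-controlling step of the pathway, stood at 178, 160, 161, 188 and 171 CPM in 50 µM libraries, against 93.0, 114, 88.4, 86.7 and 89.1 CPM in vehicle libraries of 3 h. The groups did not overlap, although vehicle replicate 2 stood above its companions. The log2 fold change was 0.86 ± 0.08 (SE, n = 5 each; edgeR adjusted p 9.96e-06), a 1.81-fold level. Lss, lanosterol synthase, which folds the epoxide into the first sterol, had 94.8, 85.4, 72.7, 85.5 and 76.9 CPM in 50 µM libraries, against 41.6, 49.6, 45.4, 47.7 and 43.7 CPM in vehicle libraries. Its groups were also apart, with a log2 fold change of 0.86 ± 0.08 (edgeR adjusted p 1.16e-05). An antisense transcript overlaps Lss, but its median count was 4 beside 1355 for Lss.

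The enzymes that strip methyl groups from lanosterol came next. Cyp51, the cytochrome P450 that takes the first methyl group off lanosterol and the target of azole fungicides, had 220, 172, 198, 195 and 181 CPM in 50 µM libraries, against 94.5, 102, 91.0, 95.1 and 87.5 CPM in vehicle libraries. The lowest treated library lay far above the highest vehicle library, and the log2 fold change was 1.03 ± 0.07 (edgeR adjusted p 5.14e-07). The last 166 bases of Cyp51 are shared with the end of Akap9 on the opposite strand, and whether counting used the strand is not stated. Akap9 itself was not called in any of the 15 tests, and its log2 fold change at 50 µM and 3 h was −0.12 ± 0.10 (edgeR adjusted p 0.705).

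Msmo1, the monooxygenase that oxidises the remaining pair of methyl groups, had 91.8, 99.8, 89.0, 116 and 96.6 CPM in 50 µM libraries, against 45.2, 53.8, 53.5, 46.0 and 45.5 CPM in vehicle libraries. The groups were apart, with a log2 fold change of 1.01 ± 0.08 (edgeR adjusted p 3.09e-06). Nsdhl, the X-linked dehydrogenase that works beside Msmo1 and is mutated in human CHILD syndrome, had 53.4, 48.9, 42.1, 49.6 and 44.0 CPM in 50 µM libraries, against 26.5, 26.6, 26.9, 24.5 and 23.3 CPM in vehicle libraries. It rose by 0.89 ± 0.08 on the log2 scale (edgeR adjusted p 1.14e-05), with no overlap. Xist ranged between 359 and 1192 CPM in these 50 µM libraries, against 412 to 629 CPM in the vehicle libraries. The 50 µM libraries with the least Xist, replicates 4 and 1 at 359 and 426 CPM, were those with the most Nsdhl, at 49.6 and 53.4 CPM. Replicate 2, with 1005 CPM of Xist, came close to them at 48.9 CPM of Nsdhl. In vehicle the order differed, and the library with the least Xist, replicate 5 at 412 CPM, had the least Nsdhl, 23.3 CPM. A link between Xist and Nsdhl was not tested. Hsd17b7, the ketosteroid reductase that completes each round of demethylation and can also turn estrone into estradiol, had 41.5, 27.1, 42.4, 31.95 and 35.7 CPM in 50 µM libraries, against 26.4, 17.6, 18.7, 22.9 and 22.0 CPM in vehicle libraries. The lowest treated library, at 27.1 CPM, was close to the highest vehicle library, at 26.4 CPM, and the log2 fold change was 0.72 ± 0.13 (edgeR adjusted p 0.00889).

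The last enzymes of the chain differed most among themselves. Ebp, the X-linked isomerase that moves the ring double bond, had 18.7, 16.6, 12.9, 21.1 and 14.5 CPM in 50 µM libraries, against 13.5, 18.2, 16.4, 12.4 and 14.1 CPM in vehicle libraries. These groups overlapped almost fully, with a log2 fold change of 0.16 ± 0.14 (edgeR adjusted p 0.702), and whether Ebp differed from the other enzymes in its response was not tested. Ebp also had the fewest counts of the 9, with a median of 279 per library. Sc5d, the desaturase that makes 7-dehydrocholesterol, the parent of vitamin D, had 48.3, 53.1, 53.9, 56.7 and 54.7 CPM in 50 µM libraries, against 34.3, 35.2, 36.3, 43.4 and 38.0 CPM in vehicle libraries. Its rise of 0.50 ± 0.08 on the log2 scale (edgeR adjusted p 0.00275) was the smallest of the 8 that were called. Dhcr7, the reductase of the final step and the gene of Smith-Lemli-Opitz syndrome, had 119, 106, 101, 118 and 107 CPM in 50 µM libraries, against 50.7, 53.9, 47.9, 45.02 and 48.9 CPM in vehicle libraries. It showed the largest rise of the 9 at 1.15 ± 0.07 on the log2 scale, or 2.22-fold (edgeR adjusted p 1.09e-07).

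All 8 enzymes were called in each of the 10 refits that left out a library and in each of the 7 other settings tried. The summed markers of all 7 cell types overlapped between 50 µM and vehicle at 3 h. In bulk RNA a change in the number of cells of a type and a change in RNA per cell cannot be told apart.

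**Figure D2:**
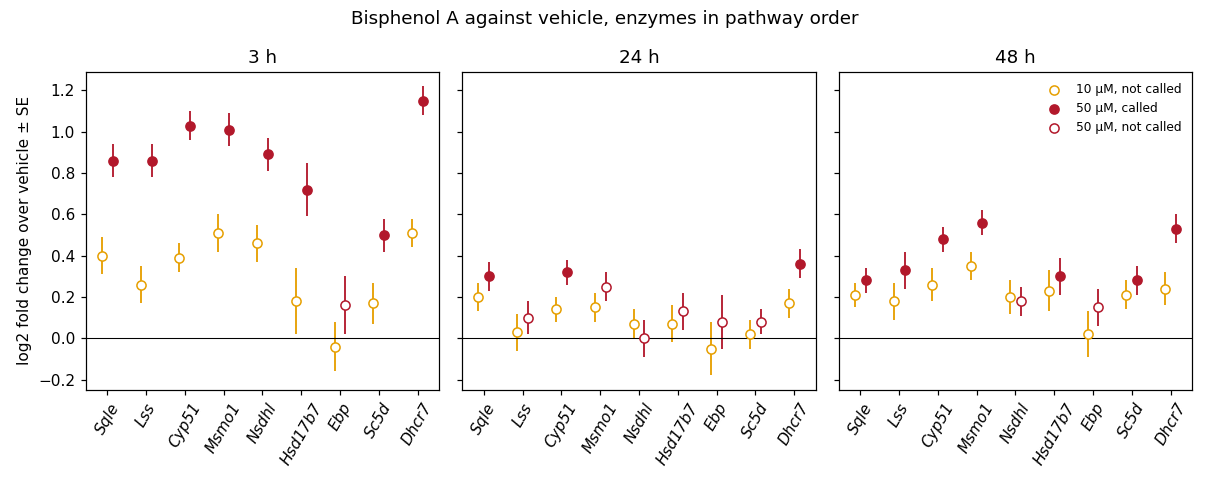
Log2 fold change over vehicle for the 9 enzymes in pathway order at 3, 24 and 48 h, with vertical lines for ± SE. Filled points were called by edgeR (adjusted p under 0.05) and open points were not; at 50 µM the values are highest at 3 h, with 8 called, and lower at 24 h, with 3 called, and at 48 h, with 7 called.

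At 10 µM and 3 h the log2 fold change over vehicle was positive in 8 of the 9 enzymes, but 0 enzymes and 0 genes in all were called by edgeR (0.0% of genes higher; 974 of 17009 genes and 6 of 9 enzymes had an unadjusted p under 0.05). In the libraries themselves the 5 treated libraries lay wholly above the 5 vehicle libraries for 5 of the 9 enzymes, Sqle, Cyp51, Msmo1, Nsdhl and Dhcr7, against 0.753% of all genes. The 10 µM and 50 µM comparisons share their vehicle libraries, so they are given side by side and not as separate evidence.

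Dhcr7 had 65.3, 74.8, 71.7, 68.6 and 71.8 CPM in 10 µM libraries of 3 h, against the 45.02 to 53.9 CPM of vehicle, with a log2 fold change of 0.51 ± 0.07 (edgeR adjusted p 0.0635). Msmo1 had 62.0, 82.4, 70.0, 66.6 and 67.9 CPM in 10 µM libraries, against 45.2 to 53.8 CPM in vehicle, with 0.51 ± 0.09 (edgeR adjusted p 0.165). Cyp51 had 123, 135, 117, 121 and 123 CPM in 10 µM libraries, against 87.5 to 102 CPM in vehicle, with 0.39 ± 0.07 (edgeR adjusted p 0.165). In each of these 3 enzymes the 10 µM libraries sat between the vehicle and the 50 µM libraries without touching either (50 µM lay wholly above 10 µM in 0.919% of all genes). Nsdhl had 32.04, 38.6, 39.7, 34.9 and 31.1 CPM in 10 µM libraries, against 23.3 to 26.9 CPM in vehicle (log2 fold change 0.46 ± 0.09, edgeR adjusted p 0.359). Sqle had 117, 141, 116, 120 and 130 CPM in 10 µM libraries, against 86.7 to 114 CPM in vehicle (0.40 ± 0.09 on the log2 scale, edgeR adjusted p 0.48). The groups were again apart, for Sqle by a narrow gap to vehicle replicate 2. The 10 µM libraries of Nsdhl and Sqle also lay wholly below their 50 µM libraries. Lss at 0.26 ± 0.09, Hsd17b7 at 0.18 ± 0.16, Sc5d at 0.17 ± 0.10 and Ebp at −0.04 ± 0.12 on the log2 scale overlapped with vehicle. With DESeq2 17 genes were called at 10 µM and 3 h, and 5 of them were these same enzymes, Sqle, Cyp51, Msmo1, Nsdhl and Dhcr7. In a single fit of all 45 libraries 12 genes were called, again with these 5 among them. Without 10 µM replicate 3, edgeR called 5 genes, among them Cyp51 and Dhcr7.

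Set directly against 10 µM, 50 µM gave higher levels of 8 of the 9 enzymes at 3 h, where 0.353% of all genes were called higher. The log2 difference was largest in Cyp51 and Dhcr7, at 0.64 ± 0.07 in each (edgeR adjusted p 2.32e-08 and 2.72e-07, from the fit of all 45 libraries). It was 0.59 ± 0.09 in Lss, 0.55 ± 0.12 in Hsd17b7, 0.50 ± 0.08 in Msmo1, 0.45 ± 0.07 in Sqle, 0.43 ± 0.08 in Nsdhl and 0.33 ± 0.07 in Sc5d. Ebp was not called, at 0.20 ± 0.12 (edgeR adjusted p 0.542). When only the 10 libraries compared were fitted, 4 enzymes were called, Sqle, Lss, Cyp51 and Dhcr7. The groups of Hsd17b7 and Sc5d overlapped, and their calls were each lost in 3 of the 10 refits without a library.

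At 24 h the response to 50 µM was small. Of the 9 enzymes 3 were called higher, Sqle, Cyp51 and Dhcr7, against 1.37% of all genes, and the median log2 fold change was 0.13, beside −0.001 over all genes. Dhcr7 had 91.9, 93.3, 79.4, 87.6 and 81.2 CPM in 50 µM libraries, against 67.9, 61.8, 69.6, 71.7 and 65.6 CPM in vehicle libraries of 24 h. The groups were apart, with a log2 fold change of 0.36 ± 0.07 (edgeR adjusted p 0.0089). Cyp51 had 142, 156, 154, 150 and 152 CPM in 50 µM libraries, against 130, 128, 108, 121 and 117 CPM in vehicle libraries, and rose by 0.32 ± 0.06 on the log2 scale (edgeR adjusted p 0.0111). Sqle had 134, 123, 127, 133 and 121 CPM in 50 µM libraries, against 116, 96.7, 96.8, 109 and 99.2 CPM in vehicle libraries, and rose by 0.30 ± 0.07 (edgeR adjusted p 0.0201). For these 3 enzymes the treated libraries lay wholly above vehicle (2.2% of all genes), although the call of Sqle was lost without vehicle replicate 3 or 5 or without 50 µM replicate 4. Msmo1 was not called at 0.25 ± 0.07 (edgeR adjusted p 0.0934), and was called by DESeq2, with the replicate number as a block, and without 50 µM replicate 3. The other 5 had log2 fold changes between 0.00 for Nsdhl and 0.13 for Hsd17b7, and their groups overlapped. The summed macrophage markers (8 genes) were lower at this time, 113 to 125 CPM in 50 µM libraries against 150 to 178 CPM in vehicle libraries, and their part in the result was not tested.

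At 48 h more enzymes and more genes in all were called than at 24 h. The change of effect between these times was tested apart and is given after the values. Of the 9 enzymes 7 were called higher, all but Nsdhl and Ebp, against 3.88% of all genes, with a median log2 fold change of 0.30, beside −0.005 over all genes. Msmo1 had 106, 92.4, 94.0, 89.4 and 96.2 CPM in 50 µM libraries, against 67.0, 60.9, 65.9, 58.8 and 69.4 CPM in vehicle libraries of 48 h. It gave the largest value of that time, 0.56 ± 0.06 on the log2 scale (edgeR adjusted p 4.07e-05), with a wide gap between the groups. Dhcr7 had 84.6, 71.8, 91.0, 86.8 and 79.2 CPM in 50 µM libraries, against 58.8, 59.6, 57.6, 56.2 and 53.1 CPM in vehicle libraries (0.53 ± 0.07 on the log2 scale, edgeR adjusted p 0.000124). Cyp51 had 147, 151, 154, 159 and 162 CPM in 50 µM libraries, against 109, 94.9, 109, 115 and 123 CPM in vehicle libraries (0.48 ± 0.06, edgeR adjusted p 0.000159). In both the treated libraries were wholly above vehicle, as they were in 7 of the 9 enzymes at this time, all but Lss and Ebp, against 4.3% of all genes.

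The remaining calls of 48 h had smaller log2 values. Sqle had 106 to 121 CPM in 50 µM libraries, against 85.0 to 103 CPM in vehicle libraries (0.28 ± 0.06 on the log2 scale, edgeR adjusted p 0.0055), and Sc5d 48.2 to 58.7 CPM against 39.7 to 47.0 CPM in vehicle (0.28 ± 0.07, edgeR adjusted p 0.0143). Lss had 70.6, 66.6, 74.2, 70.0 and 54.5 CPM in 50 µM libraries, against 56.3, 57.0, 58.4, 50.2 and 43.7 CPM in vehicle libraries, and overlapped with vehicle through replicate 5 (0.33 ± 0.09, edgeR adjusted p 0.0321). Hsd17b7 had 25.5, 23.9, 29.6, 26.0 and 24.4 CPM in 50 µM libraries, against 22.8, 23.0, 19.7, 19.0 and 19.9 CPM in vehicle libraries (0.30 ± 0.09, edgeR adjusted p 0.0455). The calls of Lss and Hsd17b7 were lost in 5 and 7 of the 10 refits without a library, and that of Hsd17b7 was also lost without the filter and in the fit of all 45 libraries. Nsdhl lay wholly above vehicle, 36.9 to 41.3 CPM in 50 µM libraries against 30.5 to 36.3 CPM, but was not called (0.18 ± 0.07, edgeR adjusted p 0.105). Ebp overlapped (0.15 ± 0.09, edgeR adjusted p 0.4). Summed muscle markers (10 genes) were lower at this time, 1464 to 2301 CPM in 50 µM libraries against 2900 to 4546 CPM in vehicle, and so were the macrophage markers, at 112 to 206 CPM against 211 to 284 CPM. Their part in the enzymes' values was not tested. Same-numbered libraries of 50 µM and vehicle varied together at 48 h, and with the replicate number as a block 2598 genes were called in place of 1536, with 7 enzymes in either fit.

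The difference in response between the times was tested itself. The log2 effect of 50 µM was smaller at 24 h than at 3 h in 7 of the 9 enzymes, all but Hsd17b7 and Ebp, against 0.493% of all genes. The change in effect was −0.90 ± 0.12 in Nsdhl (edgeR adjusted p 5.27e-06), −0.80 ± 0.11 in Dhcr7 (6.56e-06), −0.77 ± 0.11 in Msmo1 (2.42e-05), −0.76 ± 0.13 in Lss (0.000703), −0.72 ± 0.09 in Cyp51 (5.27e-06), −0.56 ± 0.10 in Sqle (0.000842) and −0.43 ± 0.10 in Sc5d (0.0326). In the same test Hsd17b7 stood at −0.60 ± 0.17 (edgeR adjusted p 0.0929) and Ebp at −0.09 ± 0.17 (0.931). The call of Sc5d was lost in 11 of the 20 refits without a library. The effect was also smaller at 48 h than at 3 h in 6 of the 9 (not Hsd17b7, Ebp or Sc5d), against 1.61% of all genes, with changes between −0.45 ± 0.11 in Msmo1 and −0.71 ± 0.12 in Nsdhl (edgeR adjusted p 0.0147 and 0.000112). Between 48 and 24 h edgeR called 0 genes (0.0%), while 641 genes and 1 enzyme, Msmo1, had an unadjusted p under 0.05, and DESeq2 called 4 genes and 0 enzymes.

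In the levels themselves, vehicle means were higher at 24 h than at 3 h in all enzymes but Ebp. The 50 µM means were lower at 24 h than at 3 h in all enzymes but Sc5d. Sc5d averaged 53.3 ± 3.11 and 53.9 ± 1.99 CPM at 3 and 24 h in 50 µM libraries (SD, n = 5), against 37.4 ± 3.62 and 51.1 ± 2.92 CPM in vehicle libraries. Dhcr7 averaged 110 ± 8.01 CPM at 3 h, 86.7 ± 6.22 CPM at 24 h and 82.7 ± 7.44 CPM at 48 h in 50 µM libraries (SD, n = 5), against 49.3 ± 3.29, 67.3 ± 3.84 and 57.1 ± 2.57 CPM in vehicle libraries at those times. Sqle averaged 171 ± 11.5, 128 ± 5.94 and 115 ± 5.6 CPM at 3, 24 and 48 h in 50 µM libraries, against 94.3 ± 11.4, 103 ± 8.39 and 94.3 ± 6.47 CPM in vehicle libraries. Nsdhl averaged 47.6 ± 4.54, 44.4 ± 5.56 and 38.6 ± 1.8 CPM in 50 µM libraries, against 25.6 ± 1.59, 44.3 ± 3.98 and 33.9 ± 2.2 CPM in vehicle libraries. For Nsdhl at 24 h the means of the 50 µM and vehicle groups nearly coincided. Times were not tested against each other within the 50 µM cultures.

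In vehicle these transcripts also differed between times in culture. Of the 9 enzymes 6 were higher at 24 h than at 3 h, Lss, Cyp51, Msmo1, Nsdhl, Sc5d and Dhcr7, but so were 16.3% of all genes, and the median of the enzymes was 0.46 on the log2 scale, beside −0.001 over all genes. Nsdhl had 42.1, 41.8, 40.8, 49.9 and 47.2 CPM in vehicle libraries of 24 h, against 26.5, 26.6, 26.9, 24.5 and 23.3 CPM in those of 3 h. This was the largest rise of the 9, 0.81 ± 0.08 on the log2 scale (edgeR adjusted p 2.71e-06), with the groups far apart. Msmo1 had 70.5 to 82.9 CPM at 24 h against 45.2 to 53.8 CPM at 3 h, a log2 fold change of 0.67 ± 0.07 (edgeR adjusted p 8.19e-06), and Lss 62.3 to 80.0 CPM against 41.6 to 49.6 CPM, a log2 fold change of 0.59 ± 0.08 (edgeR adjusted p 5.96e-05). Sc5d and Dhcr7 rose by 0.46 ± 0.08 and 0.46 ± 0.07 and Cyp51 by 0.37 ± 0.07 on the log2 scale. All 6 were without overlap, as were 11.1% of all genes. Sqle (0.14 ± 0.08), Hsd17b7 (0.25 ± 0.11) and Ebp (−0.17 ± 0.14) were not called. Sqle was called when vehicle 3 h replicate 2, its high library, was left out, and Hsd17b7 when vehicle 3 h replicate 1 was.

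Part of that rise was gone by 48 h. Lss, Msmo1, Nsdhl, Sc5d and Dhcr7 were lower at 48 h than at 24 h in vehicle, 5 of 9 enzymes against 3.02% of all genes, with log2 fold changes between −0.25 ± 0.06 in Dhcr7 and −0.40 ± 0.07 in Nsdhl (edgeR adjusted p 0.0197 and 0.00387). Nsdhl had 34.5, 33.1, 34.9, 30.5 and 36.3 CPM at 48 h, all below the 40.8 to 49.9 CPM of 24 h. This count depended on single libraries: 2 enzymes were called without vehicle 24 h replicate 4, and 3 without vehicle 48 h replicate 2 or replicate 4. The ranges of Sc5d overlapped, and the other 4 enzymes lay wholly below their 24 h values, as did 3.03% of all genes. Compared with 3 h, 5 enzymes were still higher at 48 h (Lss, Cyp51, Msmo1, Nsdhl and Dhcr7), against 23.9% of all genes, the largest being Msmo1 and Nsdhl at 0.41 ± 0.07 and 0.41 ± 0.08 on the log2 scale (edgeR adjusted p 0.000294 and 0.000382). Only Msmo1 and Nsdhl were without overlap, against 17.4% of all genes. The call of Lss was lost in 6 of the 10 refits without a library, and Sqle stood at 0.01 ± 0.08. Over the same times the cartilage markers (8 genes) summed to 3998 to 4781 CPM at 3 h, 9601 to 12110 CPM at 24 h and 13503 to 18331 CPM at 48 h in vehicle libraries, and the part of changing cell content in the enzymes' course was not tested.

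At 10 µM the later times gave small values with no call. At 24 h (0.0% of genes called higher by edgeR, 786 with an unadjusted p under 0.05; DESeq2 called 17 genes and 0 enzymes) the log2 fold changes of the enzymes ran between −0.05 for Ebp and 0.20 for Sqle, all groups overlapped with vehicle (0.434% of all genes lay wholly above it), and 4 had an unadjusted p under 0.05. At 48 h (0.0% higher and 0.00591%, a single gene, lower by edgeR; 980 with an unadjusted p under 0.05; DESeq2 called 53 genes and 1 enzyme, Msmo1) the values ran between 0.02 for Ebp and 0.35 for Msmo1, and 7 of the 9 had an unadjusted p under 0.05. Msmo1 had 77.7, 90.1, 76.4, 78.5 and 86.8 CPM in 10 µM libraries of 48 h, against 58.8 to 69.4 CPM in vehicle. These groups did not overlap, at 0.35 ± 0.07 on the log2 scale (edgeR adjusted p 0.111), and Sqle was the other enzyme without overlap, at 103.4 to 112.6 CPM in 10 µM libraries against 84.97 to 102.8 CPM in vehicle, a narrow gap. Groups without overlap on the higher side were 0.668% of all genes. With the replicate number as a block, 37 genes were called at 48 h, among them Msmo1 (edgeR adjusted p 0.0307; between 0.00157 and 0.291 over all settings for Msmo1 at 10 µM and 48 h), and 95 genes but 0 enzymes at 24 h. Set against 10 µM directly, 50 µM was called higher for 0 enzymes at 24 h (0.26% of all genes by edgeR; 2 enzymes had an unadjusted p under 0.05, and DESeq2 called 0). At 48 h it was higher for Cyp51 and Dhcr7 (1.02% of all genes), at 0.23 ± 0.07 and 0.29 ± 0.07 on the log2 scale (edgeR adjusted p 0.0349 and 0.0147). Both calls were lost without 50 µM replicate 3, without 10 µM replicate 1, and when only the groups compared were fitted. In all, the call of Dhcr7 was lost in 2 of the 10 refits without a library and that of Cyp51 in 6, and that of Cyp51 was also lost without the filter.

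Upstream of squalene, most genes of the pathway were also higher at 50 µM and 3 h. Of the 9 genes of the mevalonate arm 8 were called higher, all but Pmvk, against 0.889% of all genes, with a median log2 fold change of 0.74. Idi1, which isomerises the prenyl unit, rose by 1.01 ± 0.08 (edgeR adjusted p 2.96e-06), and Fdft1, the squalene synthase just before Sqle, by 0.77 ± 0.08 (2.16e-05). Of 4 further post-squalene genes 3 were called. Erg28, which tethers demethylation enzymes to the membrane, was called at 0.43 ± 0.07 on the log2 scale (edgeR adjusted p 0.00526). The 2 reductases that can serve the same step after Cyp51 gave different values: Tm7sf2 was called at 0.68 ± 0.14 (edgeR adjusted p 0.0195), and Lbr, which also anchors chromatin at the nuclear envelope, was not called at 0.22 ± 0.11 (0.448). Tm7sf2 had 18.7 to 28.7 CPM in 50 µM libraries, against 11.9 to 17.2 CPM in vehicle libraries, without overlap, but its call was lost in 4 of the 10 refits without a library. Lbr had 66.2 to 90.8 CPM in 50 µM libraries, against 49.1 to 74.1 CPM in vehicle libraries, and overlapped. The difference between these genes was not tested.

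**Figure D3:**
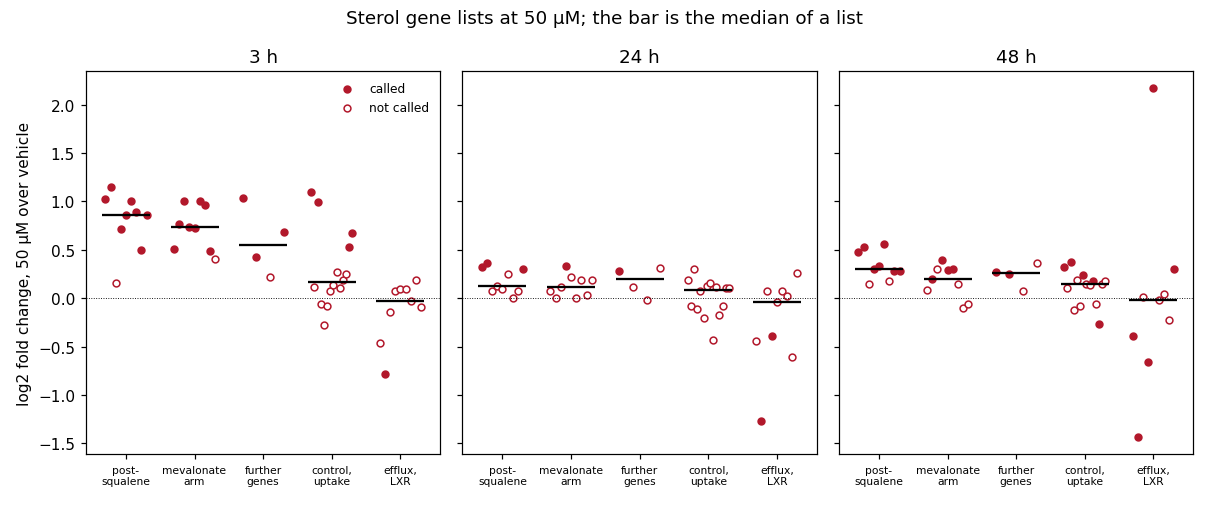
Log2 fold change of 50 µM over vehicle for each gene of 5 sterol gene lists at 3, 24 and 48 h. Filled points were called by edgeR (adjusted p under 0.05), open points were not, and the bar is the median of the list; at 3 h the medians of the post-squalene enzymes and of the mevalonate arm are 0.86 and 0.74, and that of the efflux genes is −0.03.

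Of 14 genes of SREBP control and sterol uptake 4 were called at 50 µM and 3 h, all higher, among them Insig1 (1.10 ± 0.09 on the log2 scale, edgeR adjusted p 3.55e-06), the sterol carrier Stard4 (0.67 ± 0.08, 0.000226) and Srebf2, which encodes SREBP2 (0.53 ± 0.06, 0.000168). The list's median was 0.16, and Srebf1 and Scap were not called, while 0.889% of all genes were called higher. Of 9 genes of sterol efflux and LXR response, 0 were called higher and 1 lower, where 0.518% of all genes were called lower. This was the exporter Abcg1, at 9.29, 9.87, 8.35, 12.1 and 8.91 CPM in 50 µM libraries against 16.2, 16.0, 16.5, 15.9 and 18.3 CPM in vehicle libraries (−0.78 ± 0.11 on the log2 scale, edgeR adjusted p 0.00105).

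Calls at the later times differed by list. Over all genes 1.37% were called higher at 24 h and 3.88% at 48 h at 50 µM. Of the mevalonate arm 1 gene was called at 24 h and 4 at 48 h, among them Hmgcs1, Idi1 and Fdft1 (0.29 ± 0.05, 0.30 ± 0.08 and 0.20 ± 0.06 on the log2 scale), and the list's median was 0.12 at 24 h and 0.20 at 48 h, where the 9 post-squalene enzymes had 0.13 and 0.30. Of the 4 further post-squalene genes 1 was called at 24 h and 2 at 48 h, Erg28 among them. Of the regulators 0 were called at 24 h by edgeR, where 3 had an unadjusted p under 0.05 and DESeq2 called 1, and at 48 h 4 were higher, among them Insig1, and 1 lower, Srebf1 at −0.27 ± 0.06 (edgeR adjusted p 0.0112). Abcg1 was below vehicle at 24 h too (−1.27 ± 0.13, edgeR adjusted p 0.000172) and at 48 h (−1.43 ± 0.13, 2.16e-05), and Apoe was lower at both times, at −0.39 ± 0.07 (0.00421) and −0.66 ± 0.11 (0.00116). At 48 h Abca1 was also lower (−0.39 ± 0.05, 0.000319, a call lost in the fit of all 45 libraries), while Soat1, which esterifies cholesterol, and Ch25h were higher, at 0.30 ± 0.06 (0.00549) and 2.17 ± 0.48 (0.00929). In all, 2 of the 9 efflux and LXR genes were higher and 3 lower at 48 h, when 5.3% of all genes were called lower (2.1% at 24 h). The summed macrophage markers were also lower at 50 µM at 24 and 48 h, and their part in the values of these genes was not tested. All 9 efflux and LXR genes passed the filter on low counts at 50 µM and 48 h, but 8 did at 10 µM against the same vehicle libraries. Which gene fell short, and the level of Ch25h, are not given here. At 10 µM edgeR called 0 genes of these 4 lists at any of the 3 times, with 5, 2, 3 and 2 genes of the mevalonate arm, the further post-squalene genes, the regulators and the efflux genes at an unadjusted p under 0.05 at 3 h. Insig1 stood at 0.57 ± 0.12 on the log2 scale there (edgeR adjusted p 0.48) and was called by DESeq2, as were Fdps and Fdft1. At 24 h the same lists held 1, 1, 0 and 3 genes at an unadjusted p under 0.05 and 0 that DESeq2 called, and at 48 h they held 5, 1, 4 and 2, of which DESeq2 called 5, among them Hmgcs1 and Abcg1.

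Levels per gene length were compared on the deposited FPKM scale. In vehicle at 3 h Cyp51 was the most abundant of the 9, at 21.0 ± 1.18 FPKM (SD, n = 5), followed by Sqle at 16.8 ± 1.97 FPKM, and their ranges of 19.5 to 22.6 and 15.6 to 20.3 FPKM overlapped. A middle group followed in which each neighbour's range overlapped the next: Nsdhl at 8.86 ± 0.562, Dhcr7 at 8.38 ± 0.533, Msmo1 at 7.86 ± 0.695, Sc5d at 7.61 ± 0.759 and Ebp at 6.39 ± 0.975 FPKM. Lss at 4.18 ± 0.288 and Hsd17b7 at 4.17 ± 0.697 FPKM were lowest and did not differ beyond their spread. At 50 µM and 3 h the order began with Cyp51 at 43.3 ± 4.31 FPKM, Sqle at 30.5 ± 1.96 FPKM and Dhcr7 at 18.7 ± 1.33 FPKM, and the lowest were Lss at 7.61 ± 0.793, Ebp at 7.16 ± 1.37 and Hsd17b7 at 6.92 ± 1.29 FPKM, whose ranges overlapped. The range of Cyp51, 38.4 to 49.6 FPKM, was clear of that of Sqle, 28.5 to 33.2 FPKM. Dhcr7, Nsdhl at 16.5 ± 1.58 FPKM and Msmo1 at 15.9 ± 1.62 FPKM overlapped in turn, and Sc5d at 10.8 ± 0.583 FPKM lay clear of its neighbours.

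**Figure D4:**
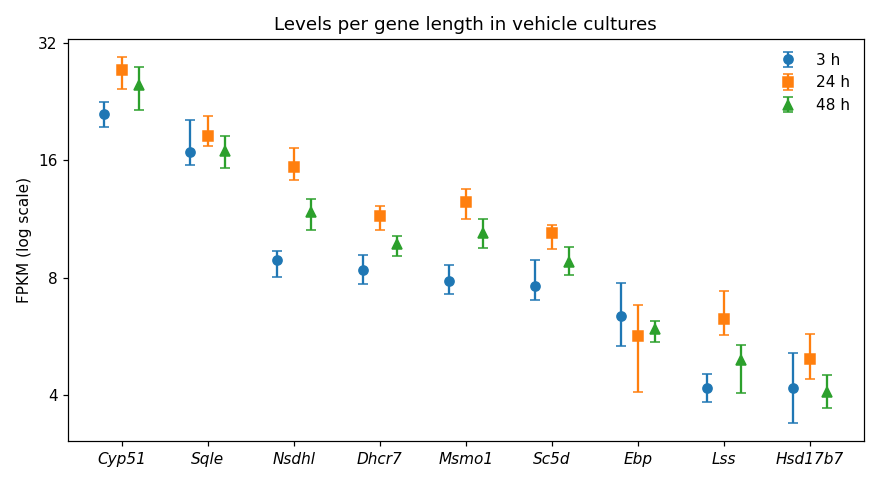
Level of each enzyme in vehicle libraries on the deposited FPKM scale (log axis), ordered by the 3 h mean. Points are means of 5 libraries at 3, 24 and 48 h and whiskers run from the lowest to the highest library; Cyp51 and Sqle lie above the rest, and Lss and Hsd17b7 are lowest at 3 h.

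Relative to vehicle of the same time, the enzymes other than Ebp moved together over the 45 libraries. After subtracting the vehicle mean of the same time from the log2 CPM, each enzyme was correlated with the mean of the other 8. Pearson's r was 0.96 for Dhcr7, 0.95 for Msmo1, 0.94 for Sqle and Cyp51, 0.90 for Lss, 0.86 for Nsdhl, 0.82 for Sc5d, 0.76 for Hsd17b7 and 0.31 for Ebp. These values rest largely on the dose groups, which the libraries share: after subtracting each group's own mean, r was 0.71 for Sqle, 0.57 for Msmo1, 0.56 for Dhcr7, 0.46 for Lss, 0.36 for Nsdhl, 0.33 for Cyp51, 0.23 for Ebp, 0.18 for Sc5d and 0.15 for Hsd17b7. They are given as a description, without a test. The mean of the 9 enzymes on this vehicle-centred log2 scale was 0.90, 0.74, 0.72, 0.90 and 0.75 in 50 µM libraries of 3 h, against −0.01, 0.09, 0.00, −0.02 and −0.05 in vehicle libraries. It averaged 0.18 ± 0.05 at 24 h and 0.35 ± 0.06 at 48 h in 50 µM libraries (SD, n = 5), and 0.32 ± 0.10, 0.09 ± 0.08 and 0.21 ± 0.08 in 10 µM libraries at 3, 24 and 48 h.

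Among 13387 other genes with a mean count of at least 50, those whose vehicle-centred pattern over the 45 libraries was most like this mean included Insig1 and Hmgcs1 (Pearson's r 0.93 each), Scd1 (0.92), Srebf2, Fdft1, Fads2 and Fads1 (0.91 each) and Snai1 (0.88). Of the 10 most alike, 6 stood in the sterol lists above, and 3, Scd1, Fads1 and Fads2, encode fatty acid desaturases. Scd1 had 152, 132, 127, 128 and 116 CPM in 50 µM libraries of 3 h, against 58.7, 57.3, 55.8, 51.8 and 57.8 CPM in vehicle libraries. Its groups were far apart, with a log2 fold change of 1.21 ± 0.07 (edgeR adjusted p 1.09e-07). Snai1, a transcription factor of epithelial and mesenchymal transitions, had 98.6, 103, 96.2, 103 and 103 CPM in 50 µM libraries, against 50.7, 51.8, 52.6, 52.5 and 53.6 CPM in vehicle libraries (0.94 ± 0.06 on the log2 scale, edgeR adjusted p 1.09e-07). The likeness says nothing of shared function, and it was measured over libraries that share depth and dose group.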

How the data were processed

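RNA was measured by poly(A) RNA-seq in 45 libraries, 5 for each of 9 groups. The deposited tables, each of 2 groups, hold read counts per gene, which the authors made without normalisation as far as the values show, and FPKM (values scaled by gene length and depth) computed by the authors. The submitters' processing notes name CASAVA 1.8, STAR 2.5, HTSeq 0.6.1, DESeq2 2 and mm10. Whether reads were counted by strand is not given here. The 90 deposited normalised columns were not used. Where tables shared a library, 1345730 counts were compared and 0 differed. A gene missing from a table took its count from another table that held the same library, and 0 counts only where none did. Of 194590 values of genes missing from a table but held for that library in another, 6484 were not 0. A gene set to 0 may therefore have had counts.

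Counts were tested with edgeR 4.0.16 (quasi-likelihood F test, TMM, filterByExpr with a minimum count of 10 and minimum total of 15, Benjamini-Hochberg over all genes tested, threshold 0.05) in R 4.3.3, on the 10 libraries compared. Comparisons of 50 with 10 µM and of effects between times came from 1 fit of all 45 libraries. Standard errors are the absolute log2 fold change over the root of F. The fit was tested on simulated data with known changes. Alternatives were DESeq2 1.42.0, other normalisations and filters, other sets of libraries, a replicate block and leaving out each library.

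Groups follow the titles. The titles and descriptions of the 50 µM libraries of 3 h say 3 h, but their treatment-length label says 24 h, which bears on each result for 50 µM at 3 h and on the comparisons of its effect between times, and the library codes of 10 µM replicates 1 and 2 at 48 h are exchanged relative to their titles. Same-numbered libraries deviated together (every pair's correlation over 0.1) for 50 µM and for 10 µM against vehicle at 48 h and for 10 µM at 24 h. The numbers may therefore pair the samples there, which was read from the data. Calls come from fits without the replicate block unless the block is named, so they ignore any such pairing. For 10 µM at 48 h the same-numbered library was the best match in 2 of 5 cases by titles and in 4 of 5 by library codes.

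The enzymes and the gene lists were chosen with earlier results of these data known. The genes named were the 9 enzymes, up to 4 called genes of smallest p from each sterol list and comparison, 12 sterol genes always given, the 10 genes most alike in pattern, and Xist and Ddx3y as sample checks. Pmvk, Akap9, Fdps, Scap, Srebf1, Ch25h and the cell type markers given by level were chosen after their values were seen. Results of some genes that this rule covers are not reported here.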

Additional observations from a re-analysis of the deposited data

Results flagged for a closer look

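In 3 of 81 combinations of enzyme and group, a single library stood far from the other 4, by a test that chance passes in about 1 of 20 groups. Sqle in vehicle at 3 h had 114 CPM in replicate 2, against 86.7 to 93.0 CPM in the others. Nsdhl in 50 µM at 24 h had 34.8 CPM in replicate 3, against 44.7 to 48.5 CPM. Ebp in 10 µM at 48 h had 17.6 CPM in replicate 1, against 12.9 to 13.1 CPM.

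The effect of 50 µM differed between times by edgeR's test of the difference itself. From 3 to 24 h the log2 effect changed by −0.56 in Sqle, −0.76 in Lss, −0.72 in Cyp51, −0.77 in Msmo1, −0.9 in Nsdhl, −0.43 in Sc5d and −0.8 in Dhcr7. From 3 to 48 h it changed by −0.57 in Sqle, −0.53 in Lss, −0.55 in Cyp51, −0.45 in Msmo1, −0.71 in Nsdhl and −0.62 in Dhcr7.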

How the results depend on the processing

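Of 2340 enzyme values under alternatives, 2199 kept their direction and call, 69 lost the call, 29 gained it and 43 changed sign, 0 of these called in either fit. With DESeq2 the genes called at 50 µM numbered 594 at 3 h and 1008 at 24 h. At 10 µM they numbered 17 at 3 h, 17 at 24 h and 53 at 48 h, with 5, 0 and 1 enzymes. For 50 against 10 µM DESeq2 called 186 genes at 3 h and 259 at 24 h, and for the change of effect 214 (24 against 3 h) and 4 (48 against 24 h). In 1 fit of all 45 libraries the counts were 463 and 885 at 50 µM and 3 and 24 h, and 12, 4 and 14 at 10 µM and 3, 24 and 48 h, with 5 enzymes at 3 h. Fitting only the groups compared, 50 against 10 µM gave 21 genes and 4 enzymes at 3 h and 0 enzymes at 48 h. Without the filter, 10 µM gave 3 genes at 24 h and 25 genes and 1 enzyme at 48 h, 50 against 10 µM 1 enzyme at 48 h, and the change of effect between 24 and 48 h 1 gene. Upper-quartile scaling gave 0 genes at 10 µM and 48 h.

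With the replicate block, 1180 genes were called at 50 µM and 24 h, 2598 at 48 h, 95 at 10 µM and 24 h, 37 genes and 1 enzyme at 10 µM and 48 h (58 and 2 numbered by library code), and 183 for the change of effect between 3 and 24 h. At 24 h and 50 µM not every same-numbered pair reached a correlation of 0.1. The lowest was 0.036 and the median 0.161, against a median of −0.039 for other pairs. The comparisons of effects also take in groups where not every pair reached it. Of the enzymes, Msmo1 gained its call under the block at 50 µM and 24 h.

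Leaving out each library, the enzymes called numbered 8 to 8, 2 to 4 and 5 to 7 at 50 µM and 3, 24 and 48 h, 0 to 2, 0 to 0 and 0 to 0 at 10 µM, 6 to 7 (24 against 3 h), 2 to 5 (48 against 24 h) and 4 to 6 (48 against 3 h) in vehicle, 6 to 8, 0 to 0 and 0 to 2 for 50 against 10 µM, and 6 to 8, 0 to 0 and 5 to 6 for the changes of effect. All genes called ranged over 141 to 289, 345 to 659 and 1111 to 1370 at 50 µM, and 0 to 5, 0 to 0 and 0 to 1 at 10 µM. In vehicle all genes called ranged over 4353 to 5054 (24 against 3 h), 1049 to 1541 (48 against 24 h) and 7292 to 7644 (48 against 3 h). They ranged over 73 to 138, 65 to 125 and 386 to 577 for 50 against 10 µM, and 82 to 172, 0 to 2 and 290 to 414 for the changes of effect.

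Values near 0 changed sign. Nsdhl at 50 µM and 24 h was 0.002 with DESeq2, 0.0023 with median-of-ratios scaling and 8e-04 in the 45-library fit, and Sqle in vehicle, 48 against 3 h, was −0.0168 with upper-quartile scaling. Without a library the log2 values ranged over −0.034 to 0.079 for that of Nsdhl and −0.023 to 0.091 for that of Sqle. The ranges of Ebp were −0.017 to 0.16 (50 µM, 24 h), −0.10 to 0.034, −0.15 to 0.021 and −0.074 to 0.053 (10 µM, 3, 24 and 48 h), −0.048 to 0.13 (vehicle, 48 against 24 h), and −0.18 to 0.011 and −0.095 to 0.083 (effect, 24 and 48 against 3 h). At 10 µM and 24 h they were −0.022 to 0.091 for Lss and −0.017 to 0.065 for Sc5d, for Hsd17b7 in vehicle (48 against 3 h) −0.096 to 0.052, and for Nsdhl, 50 against 10 µM, −0.10 to 0.0076 at 24 h and −0.042 to 0.044 at 48 h. Of 458 values of other genes, 436 kept direction and call, 14 lost the call, 8 gained it and 0 changed sign. The cause of these shifts was not tested.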
